A study of Mus musculus with 8 samples.

Results

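The genes described here encode the enzymes that make cholesterol and fatty acids, and the proteins that switch these enzymes on. They were chosen by name as 31 genes: 16 enzymes of sterol synthesis, 5 regulators or carriers of the sterol-sensing pathway and 10 genes of fatty acid synthesis. Of these, 30 had a row among the 11723 genes of the deposited table, and all 30 passed the filter on low values. Fads2, a fatty acid desaturase gene, was not analysed here. The data are RNA sequencing libraries of CD8 T cells, sorted from peripheral lymph nodes of BALB/c mice aged 12 days. Wild-type mice (WT) gave 4 libraries and mice lacking interleukin-2 (IL-2-KO) gave 4. WT replicates 1 to 4 came from 115, 28.7, 1.3 and 1.3 M sorted cells (M, 1e6), pooled from 5, 5, 3 and 2 mice. IL-2-KO replicates 1 to 4 came from 26.7, 42.6, 1.1 and 0.4 M cells, and their labels state no pooling. Spleen and heterozygous control mice are mentioned in the design text of the series but not in the labels of these 8 samples, which are followed here. Interleukin-2 was absent from the whole animal, and the label gives no cell type in which it was removed.

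Cells make cholesterol from acetyl-CoA through the mevalonate pathway, in which isoprenoid units are built, joined to squalene and closed to lanosterol, which is then trimmed to cholesterol. Fatty acid synthesis starts from the same acetyl-CoA, which is carboxylated, extended to palmitate and then elongated or desaturated. Both branches are switched on by sterol regulatory element-binding proteins (SREBPs), membrane-bound transcription factors that are held back by INSIG proteins when sterols are plentiful and escorted by SCAP to be cut when sterols are scarce. SREBP-2 is known mainly for sterol genes and SREBP-1c for fatty acid genes, and T cells are known to raise both branches when they are activated and divide.

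The libraries held 11.9 to 18.4 M recovered counts. Values are in CPM, counts per 1e6 of the TMM-scaled library size, and a value of 1 stood for 11.9 to 18.6 counts. The sorted cells carried the defining transcripts of CD8 T cells in every library, with Cd8a at 1480 to 1979 CPM. WT replicate 2 and IL-2-KO replicate 3 stood apart by transcripts of other cells: Cd4 was at 38.6 and 45.5 CPM in them and at 0.461 to 2.48 in the other libraries. The macrophage gene Lyz2 was at 39.97 and 296 CPM in these libraries and at 0.230 to 2.85 elsewhere. Summed over the 7 of 14 myeloid and dendritic markers in the table, the level ran from 38.1 to 176 CPM in WT and from 43.9 to 570 CPM in IL-2-KO, and no marker in the table was at 0 in these 2 libraries. The 4 B cell markers of 10 in the table summed to 33.4 to 50.6 CPM in WT and 29.0 to 65.7 CPM in IL-2-KO. Summed markers of CD4 and regulatory T cells, 5 of 5 in the table, ran from 14.1 to 93.1 CPM in WT and from 64.9 to 236 CPM in IL-2-KO. Most of the IL-2-KO sum was Ctla4, which activated CD8 T cells also express, at 5.79 to 30.8 CPM in WT and 51.5 to 171 in IL-2-KO. Foxp3, the defining gene of regulatory T cells, was lower in IL-2-KO, at 3.92 to 4.49 CPM in WT and 2.69 to 3.56 in IL-2-KO. Those of natural killer cells, 3 of 5 in the table, ran from 106 to 156 CPM in WT and from 217 to 404 CPM in IL-2-KO. Nearly all of this sum was Eomes, also a gene of effector CD8 T cells, at 105 to 154 CPM in WT and 208 to 390 in IL-2-KO. Klrb1c overlapped between the groups, at 0.499 to 2.81 and 1.22 to 2.53 CPM. Klre1 also overlapped but reached higher values in IL-2-KO, at 0.576 to 3.12 CPM in WT and 2.01 to 13.1 in IL-2-KO. The part of these transcripts in the results below was not tested. In bulk RNA, fewer cells of a type and less RNA per cell cannot be told apart.

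Promoter sequences in the RefSeq annotation (GRCm38.p6) were found for 24 of the 31 genes, and those of 4 mevalonate and sterol genes are shown because these genes behaved differently in the data. Idi1 and Cyp51 rose in IL-2-KO, and Mvd had lower mean values there. Among the 24 members with a promoter sequence, Hmgcs1 alone holds the searched sterol regulatory element. Each run holds the 250 bases before the annotated start of transcription, 5′ to 3′ on the strand of the gene. Capitals mark the sterol regulatory element TCACNCCAC and the CCAAT box, CCAAT or ATTGG when read on the other strand. CCAAT boxes bind the factor NF-Y, a known partner of SREBPs.
Hmgcs1, chr13:119690101-119690350, plus strand: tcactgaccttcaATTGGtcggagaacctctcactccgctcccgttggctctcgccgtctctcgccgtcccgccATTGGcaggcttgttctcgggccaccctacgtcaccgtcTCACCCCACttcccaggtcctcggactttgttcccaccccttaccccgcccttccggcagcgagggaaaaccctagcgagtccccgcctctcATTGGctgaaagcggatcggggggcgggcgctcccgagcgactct
Idi1, chr13:8885356-8885605, plus strand: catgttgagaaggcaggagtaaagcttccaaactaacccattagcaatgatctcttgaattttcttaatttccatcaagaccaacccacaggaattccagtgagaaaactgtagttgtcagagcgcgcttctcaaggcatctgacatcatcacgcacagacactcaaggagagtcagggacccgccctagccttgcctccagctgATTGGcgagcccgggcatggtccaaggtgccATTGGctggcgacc
Cyp51, chr5:4104698-4104947, minus strand: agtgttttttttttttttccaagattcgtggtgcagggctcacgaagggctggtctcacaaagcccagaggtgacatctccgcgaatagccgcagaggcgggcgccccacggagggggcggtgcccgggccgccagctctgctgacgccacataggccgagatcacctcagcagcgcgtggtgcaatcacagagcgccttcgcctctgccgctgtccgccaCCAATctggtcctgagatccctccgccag
Mvd, chr8:122443423-122443672, minus strand: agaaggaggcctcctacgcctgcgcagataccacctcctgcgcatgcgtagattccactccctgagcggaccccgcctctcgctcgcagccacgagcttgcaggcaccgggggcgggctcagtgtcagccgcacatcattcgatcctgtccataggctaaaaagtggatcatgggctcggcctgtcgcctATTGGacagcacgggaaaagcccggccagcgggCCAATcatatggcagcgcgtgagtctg
The element TCACCCCAC of Hmgcs1 begins 137 bases before the start. Searched on both strands of the whole window, which reaches from 250 bases before to 50 bases after the start, TCACNCCAC was present in 1 of 13 sterol enzyme genes with a promoter sequence, 0 of 4 regulator genes and 0 of 7 fatty acid genes, against 1.34% of 9199 tested genes with a promoter. CCAAT was present in 12 of 13 sterol enzyme genes (92.3%), 3 of 4 regulator genes and 4 of 7 fatty acid genes (57.1%), against 43.5% of these 9199 genes. It was also present in 16 of 17 cell cycle genes with a promoter sequence (94.1%). These matches are letters in a window and describe no binding.

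In WT cells the fatty acid branch held the most abundant members per length. Divided by the merged exon length of each gene in kilobases (GENCODE M21), the WT mean was 71.1 CPM per kb for Elovl5, which elongates polyunsaturated fatty acids, and 49.3 for Acly, which makes cytosolic acetyl-CoA from citrate. Elovl1, an elongase of very long chains, stood at 27.5 CPM per kb, and the regulators Scap, Srebf1 and Srebf2 at 27.0, 26.9 and 24.2. Mvd led the sterol enzymes at 23.5 CPM per kb, followed by Hmgcs1 at 15.3. The lowest members were Idi1 at 2.78, Hsd17b7 at 1.48 and Scd1 at 0.264 CPM per kb. Scd2, the other stearoyl-CoA desaturase gene detected, stood at 20.5 CPM per kb.

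Expression in IL-2-KO was compared with WT over the 4 and 4 libraries. Few genes of lipid synthesis passed the test. Of the 16 sterol enzyme genes 2 rose, Idi1 and Cyp51, and none fell. None of the 5 regulator genes and none of the 9 tested fatty acid genes passed, in either direction. Over all 11530 genes tested, 11.1% were called higher and 8.03% lower by limma at an adjusted p (Benjamini-Hochberg) under 0.05, so that 2 of 30 is no more than the share of all genes. At an unadjusted limma p under 0.05, 9 of the 30 members were higher and 2 lower, against 17% and 16.3% of all genes. The median log2 change was 0.15 for the sterol enzymes, -0.03 for the regulators, 0.25 for the fatty acid genes and -0.0097 for all genes tested. All changes are on the log2(CPM + 0.5) scale, on which changes of low genes come out smaller than they are.

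**Figure D1:**
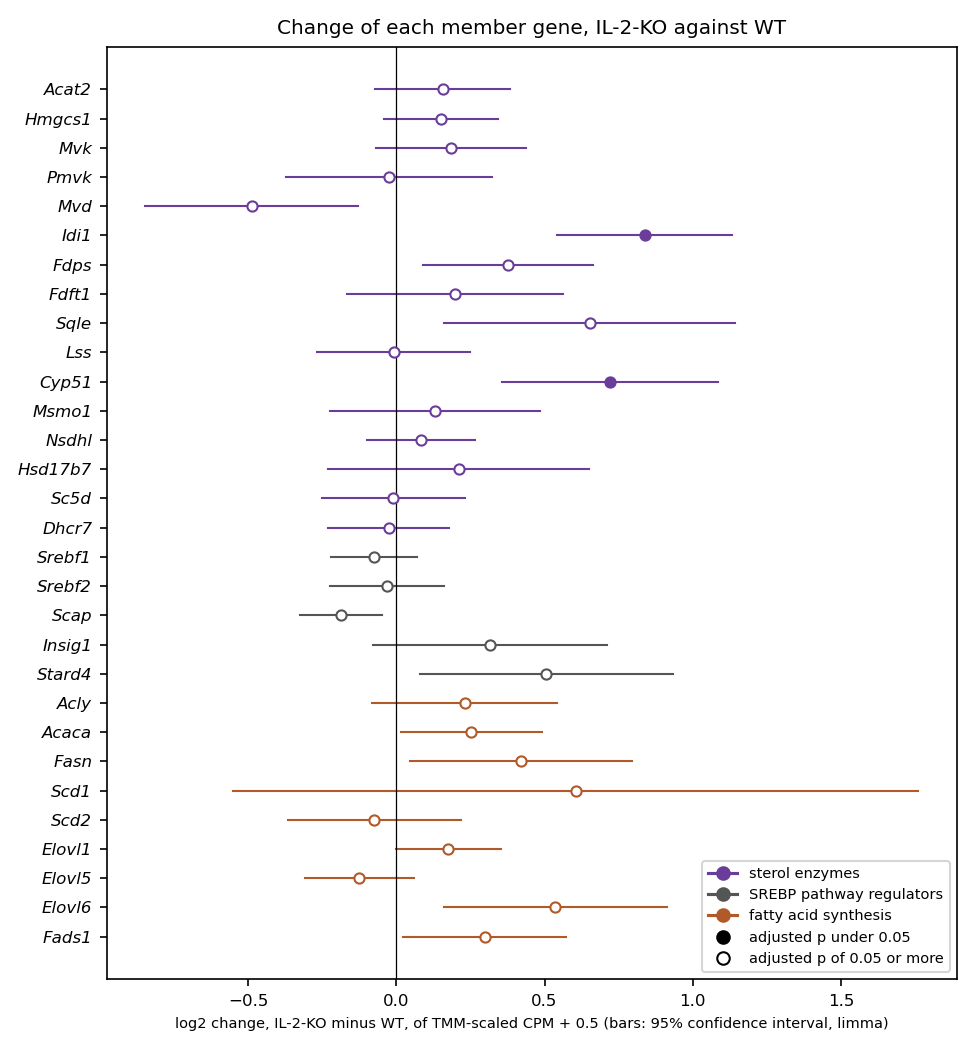
Log2 change (IL-2-KO minus WT, on the CPM + 0.5 scale) of each of the 30 tested members with its 95% confidence interval from limma, coloured by branch. Only Idi1 and Cyp51 carry the filled mark of an adjusted p under 0.05, and Mvd has the lowest change, at -0.49.

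Idi1 encodes isopentenyl diphosphate isomerase, which supplies the building unit of isoprenoids (RefSeq GRCm38.p6, chromosome 13, 8885606 to 8892396). Its WT values were 7.74, 9.68, 8.33 and 7.92 CPM, and its IL-2-KO values were 16.2, 16.9, 16.3 and 12.6 CPM. All 4 IL-2-KO libraries lay above all 4 WT libraries, with IL-2-KO replicate 4 the lowest of its group. Idi1 rose 1.79-fold, a log2 change of 0.84 with SE 0.13 (limma adjusted p = 0.00189, Benjamini-Hochberg). The difference was 0.90 between the libraries of over 2 M cells and 0.78 between those of under 2 M. With 2 libraries a group neither reached the threshold (limma adjusted p = 0.0916 and 0.113).

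Cyp51, lanosterol 14-alpha-demethylase, catalyses the demethylation that follows ring closure (chromosome 5, 4080674 to 4104697). Its WT values were 12.4, 17.6, 15.5 and 13.6 CPM, and its IL-2-KO values were 23.3, 28.0, 29.5 and 18.5 CPM. The groups did not overlap, and IL-2-KO replicate 4 was again the lowest of its group. Cyp51 rose 1.65-fold, a log2 change of 0.72 with SE 0.16 (limma adjusted p = 0.0130). The difference was 0.77 in the libraries of over 2 M cells and 0.67 in those of under 2 M (limma adjusted p = 0.154 and 0.223). The recovered counts held fractions of a read, by a tolerance of 0.02 read, in 7 of 8 libraries for Idi1 and in 4 for Cyp51, and the handling of multiply placed reads was not stated.

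Sqle, squalene epoxidase, which commits squalene to sterols, split the IL-2-KO group. It stood at 10.4, 11.1, 10.48 and 10.7 CPM in WT and at 22.0, 17.1, 22.2 and 10.1 CPM in IL-2-KO. Replicates 1 to 3 of IL-2-KO lay above every WT library, and replicate 4, sorted from 0.4 M cells, lay below every WT library. The log2 change was 0.65 with SE 0.22 (limma adjusted p = 0.0651), and Sqle passed without IL-2-KO replicate 4, at a change of 0.90 (limma adjusted p = 0.00158). Its recovered counts were whole in all 8 libraries, from 132 to 413 reads.

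Fdps, farnesyl diphosphate synthase, stood at 11.1, 9.93, 9.64 and 8.32 CPM in WT and at 14.5, 12.4, 13.01 and 11.3 CPM in IL-2-KO. Its groups did not overlap, although the change of 0.38 (SE 0.13) missed the threshold (limma adjusted p = 0.0686). With Idi1 and Cyp51 it made 3 of 16 sterol enzyme genes with every IL-2-KO value above every WT value, against 12.9% of all genes tested. Its counts held fractions of a read in all 8 libraries.

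Mvd, the decarboxylase that completes the mevalonate part of the pathway, had lower values in IL-2-KO (chromosome 8, 122433596 to 122443422). It stood at 42.2, 41.8, 39.5 and 41.8 CPM in WT and at 40.6, 28.4, 30.0 and 21.3 CPM in IL-2-KO. Replicate 1 of IL-2-KO lay inside the WT range, and the other 3 lay below it. The log2 change was -0.49 with SE 0.16 (limma adjusted p = 0.0603). Mvd passed as lower without IL-2-KO replicate 1 (-0.64, limma adjusted p = 0.00739), and also with the median shift (adjusted p = 0.0478) and with quantile normalization (0.0463). A predicted gene, Gm51557, overlaps Mvd in RefSeq.

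None of the upstream enzymes of the mevalonate pathway passed. Hmgcs1, the HMG-CoA synthase, was at 53.1 ± 2.62 CPM in WT and 59.2 ± 5.78 in IL-2-KO (SD, n = 4 each). Acat2, which joins acetyl-CoA units, had a log2 change of 0.16, the mevalonate kinase gene Mvk 0.18 and the phosphomevalonate kinase gene Pmvk -0.03, with limma adjusted p from 0.254 for Hmgcs1 to 0.929 for Pmvk. Fdft1, squalene synthase, was highest in IL-2-KO replicate 3 (23.8 CPM), IL-2-KO replicate 1 (22.1) and WT replicate 2 (21.7), and its change was 0.20 (limma adjusted p = 0.435). Ctsb, a lysosomal protease gene that overlaps Fdft1 in RefSeq, was at 115 ± 13.3 CPM in WT and 155 ± 27.8 in IL-2-KO, and its part in the Fdft1 values was not tested.

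The enzymes after lanosterol, Cyp51 apart, did not pass either. Lss, which closes squalene epoxide to lanosterol, stood at 17.4 ± 1.97 CPM in WT and 17.2 ± 1.38 in IL-2-KO. The 95% confidence interval of its log2 change ran from -0.27 to 0.25. Those of the last reductase Dhcr7 (-0.23 to 0.18), the desaturase Sc5d (-0.25 to 0.23) and the decarboxylating dehydrogenase Nsdhl (-0.10 to 0.27) also held 0. The log2 change of Msmo1, a sterol methyl oxidase gene, was 0.13, and that of the ketosteroid reductase gene Hsd17b7 was 0.21 (limma adjusted p = 0.611 and 0.498). Hsd17b7 rested on 63.0 to 180 reads per library, few beside most of the other members.

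IL-2-KO replicate 4 was the lowest of the 4 IL-2-KO libraries for 11 of the 16 sterol enzyme genes (68.8%), against 30.6% of all genes tested. The mean log2 level of the 16 genes, taken relative to each gene's WT mean, was 0.26, 0.24, 0.29 and -0.0068 in IL-2-KO replicates 1 to 4, and -0.0024, 0.04, -0.01 and -0.03 in WT. Replicates 1 to 3 of IL-2-KO thus lay above all WT libraries, and replicate 4 lay among them. In the fatty acid branch the same library was the lowest of its group for 1 of 9 genes (11.1%), Elovl1.

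**Figure D2:**
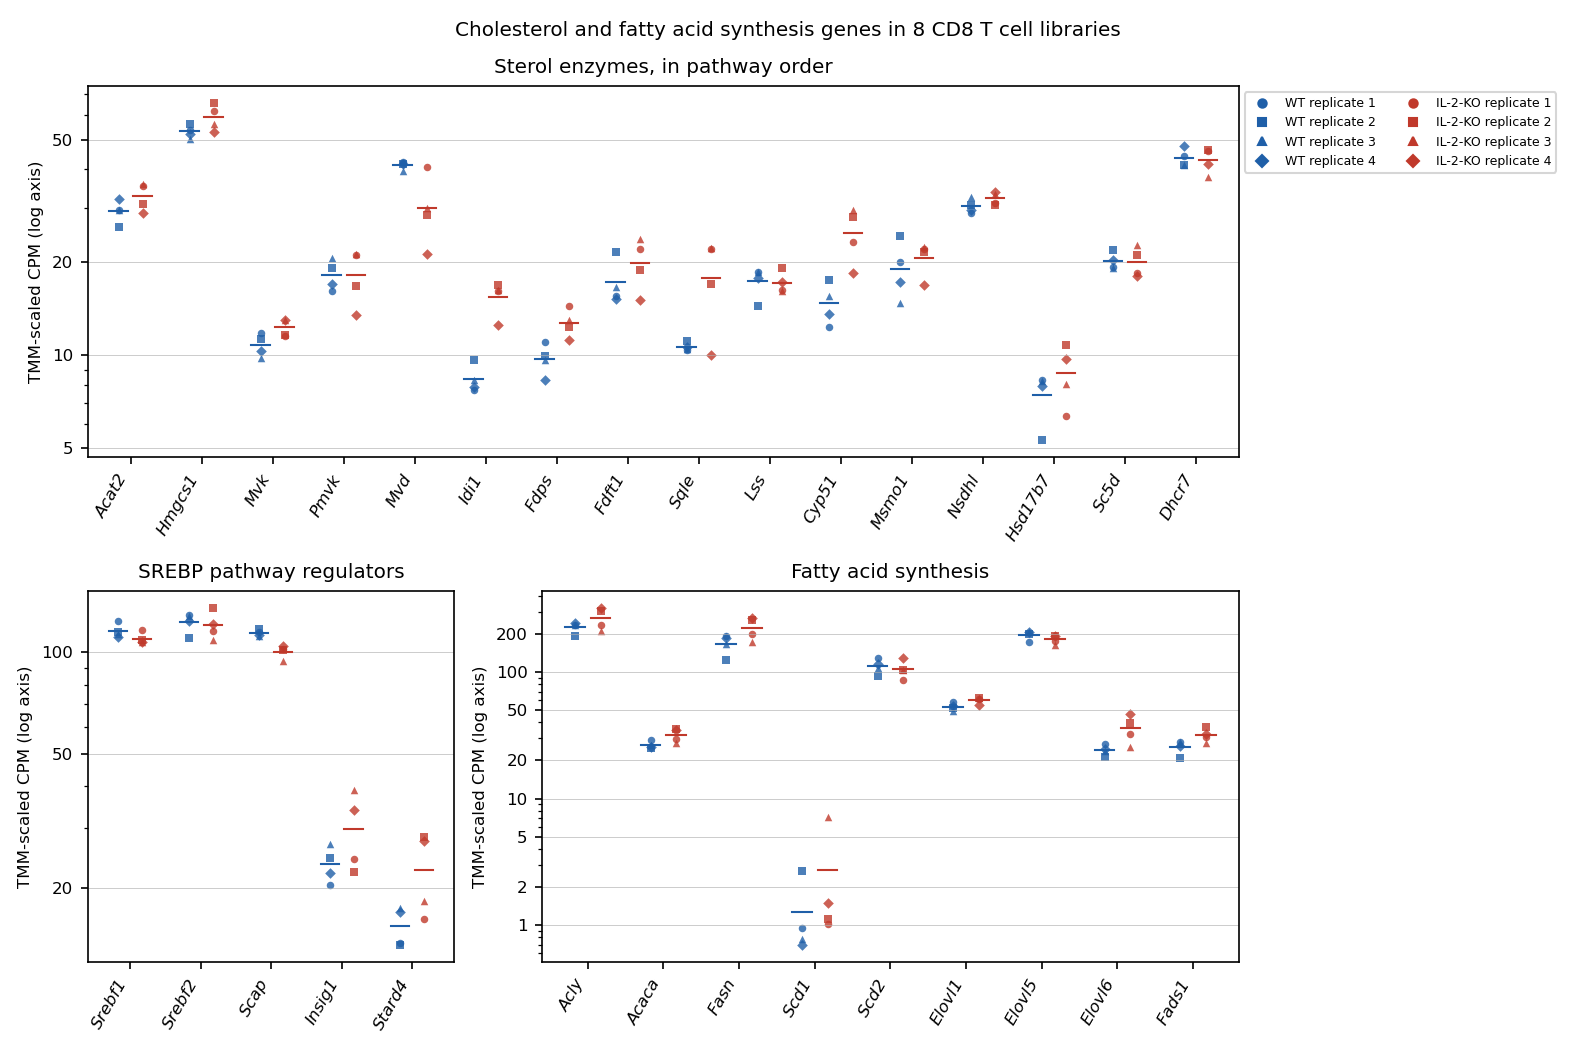
TMM-scaled CPM (log axes) of the 30 members in each of the 4 WT (blue) and 4 IL-2-KO (red) libraries, with a symbol for each replicate and lines at group means. For Idi1 and Cyp51 the red points lie above all blue points, while the red diamond of Sqle, IL-2-KO replicate 4 at 10.1 CPM, lies below the WT points.

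The transcription factor genes themselves did not pass, and their groups overlapped. Srebf1, which encodes SREBP-1, stood at 124, 115, 114 and 111 CPM in WT and at 117, 108, 107 and 107 in IL-2-KO. Srebf2, which encodes SREBP-2, stood at 129, 110, 128 and 124 CPM in WT and at 115, 136, 109 and 121 in IL-2-KO. The log2 change was -0.08 for Srebf1 (95% confidence interval from -0.22 to 0.07) and -0.03 for Srebf2 (-0.22 to 0.16), with limma adjusted p = 0.459 and 0.835.

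Scap, the escort of the SREBPs, showed a small and even difference. It stood at 115, 118, 112 and 113 CPM in WT and at 102, 101, 94.0 and 104 CPM in IL-2-KO. All IL-2-KO values lay below all WT values, which held for 11.2% of all genes tested. The log2 change was -0.19 with SE 0.06 (limma adjusted p = 0.0614), and Scap passed as lower after a median shift of the libraries (-0.21, limma adjusted p = 0.0464). Insig1, which retains the SCAP and SREBP complex and is itself an SREBP target, was at 20.3, 24.4, 26.9 and 22.1 CPM in WT and at 24.4, 22.2, 39.0 and 33.9 CPM in IL-2-KO (limma adjusted p = 0.244). Its IL-2-KO values were high in replicates 3 and 4 and within the WT range in replicates 1 and 2.

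Stard4, a carrier that moves cholesterol between membranes, also split the IL-2-KO group, but along other libraries. It stood at 13.7, 13.5, 17.4 and 16.9 CPM in WT and at 16.1, 28.3, 18.3 and 27.6 CPM in IL-2-KO. Replicates 2 and 4 lay far above WT, and replicates 1 and 3 lay near it. The log2 change of 0.51 (SE 0.19) did not pass (limma adjusted p = 0.0935) and passed without IL-2-KO replicate 1, at 0.65 (adjusted p = 0.0337). Counted among the 5 regulators and carriers, 1 was higher and 1 lower at an unadjusted limma p under 0.05 (Stard4 and Scap).

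Of the 9 fatty acid genes tested none passed limma, and 4 were higher at an unadjusted p under 0.05: Elovl6, Fasn, Fads1 and Acaca. Elovl6, which elongates palmitate to stearate, came closest (chromosome 3, 129532386 to 129638495). It stood at 27.2, 21.2, 23.97 and 24.4 CPM in WT and at 32.5, 39.8, 25.5 and 46.4 CPM in IL-2-KO. Replicates 1, 2 and 4 of IL-2-KO lay above all WT libraries, and replicate 3 lay inside the WT range. The log2 change was 0.54 with SE 0.17 (limma adjusted p = 0.0507).

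Fasn, the fatty acid synthase, stood at 193, 124, 168 and 186 CPM in WT and at 201, 257, 173 and 268 CPM in IL-2-KO. WT replicate 2 was the lowest of all libraries and IL-2-KO replicate 3 lay inside the WT range. The log2 change was 0.42 with SE 0.17 (limma adjusted p = 0.111). WT replicate 2 and IL-2-KO replicate 3 are the libraries with the most myeloid transcripts. Without both of them Elovl6 and Fasn passed, at changes of 0.63 and 0.40 (limma adjusted p = 0.0158 and 0.0466). Without IL-2-KO replicate 3 alone they passed at 0.69 and 0.54 (adjusted p = 0.00871 and 0.0475).

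Acly stood at 238, 193, 235 and 243 CPM in WT and at 237, 307, 210 and 324 in IL-2-KO, with 2 IL-2-KO libraries above and 2 within the WT range. Acaca, the acetyl-CoA carboxylase that makes malonyl-CoA, was at 29.0, 25.1, 26.8 and 25.8 CPM in WT and at 29.8, 35.6, 27.5 and 35.0 in IL-2-KO. Fads1, the delta-5 desaturase, was at 28.0, 20.9, 27.8 and 26.05 CPM in WT and at 30.6, 36.5, 27.3 and 32.3 in IL-2-KO. For these 3 genes the limma adjusted p was 0.286, 0.130 and 0.122.

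A shared order of libraries ran through this branch. IL-2-KO replicates 2 and 4 were the 2 highest of the 8 libraries for 5 of 9 fatty acid genes (Acly, Acaca, Fasn, Elovl6 and Fads1), for Stard4 among the regulators, and for 1 of 16 sterol enzyme genes, Hsd17b7. Over all genes tested this held for 11.4%. The same 5 fatty acid genes showed it after GC content and transcript length trends were removed from each library, when it held for 11.1% of all genes. The library trends with GC content had opposite signs in these pairs of libraries: log2 levels changed by 0.163 and 0.071 per 10 percentage points of GC in IL-2-KO replicates 1 and 3, and by -0.091 and -0.126 in replicates 2 and 4. The pattern was noticed in these data and was not tested.

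The stearoyl-CoA desaturase genes Scd1 and Scd2 and the elongase genes Elovl1 and Elovl5 did not share this order over all 8 libraries. Within the IL-2-KO group alone, replicates 2 and 4 were the highest for Scd2 and Elovl5, but not for Scd1 and Elovl1. Scd2 was at 87.1, 104.4, 104.1 and 130.0 CPM in IL-2-KO replicates 1 to 4, and Elovl5 at 175, 191, 165 and 194. Scd2 stood at 112 ± 15.5 CPM in WT and 106 ± 17.7 in IL-2-KO (limma adjusted p = 0.736). Scd1 was low, at 0.938, 2.69, 0.780 and 0.693 CPM in WT and at 1.02, 1.12, 7.19 and 1.49 in IL-2-KO, and its highest value in each group lay in the library with the most myeloid transcripts. Scd1 and Scd2 are similar genes on chromosome 19, so reads could be split between them, and their counts held fractions of a read in all 8 libraries. Elovl1 was at 53.3 ± 3.69 CPM in WT and 60.3 ± 3.61 in IL-2-KO (limma adjusted p = 0.155). It overlaps Cdc20 in RefSeq, a cell division gene that rose from 15.5 ± 1.21 to 40.9 ± 9.96 CPM (limma adjusted p = 3.55e-04). The part of Cdc20 reads in the Elovl1 values was not tested, and the Elovl1 counts were whole in all libraries. Elovl5 had a log2 change of -0.12 (limma adjusted p = 0.330).

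Set side by side, the branches had similar mean differences, carried in part by the same libraries. IL-2-KO replicate 2 lay above WT in both, and replicate 4 differed most between the branches. The mean log2 change was 0.20 for the 16 sterol enzyme genes and 0.26 for the 9 fatty acid genes, or 0.21 for the 8 without Scd1. The mean level of the fatty acid genes was 0.09, 0.31, 0.26 and 0.38 in IL-2-KO replicates 1 to 4 relative to WT, and 0.11, 0.35, 0.0079 and 0.39 without Scd1. The sterol mean minus the fatty acid mean was 0.18, -0.07, 0.03 and -0.38 in IL-2-KO and between -0.08 and 0.09 in WT. Without Scd1 it was 0.15, -0.11, 0.28 and -0.40 in IL-2-KO and between -0.11 and 0.22 in WT. Replicate 4 lay below all WT libraries either way, whereas the library above them was replicate 1 with Scd1 and replicate 3 without it. These means are over genes chosen with results of these data known and carry no test. Cell cycle genes, also chosen by name, rose in 20 of 20 cases, against 11.1% of all genes tested called higher. Their mean log2 level was 1.09, 1.37, 1.60 and 1.37 in IL-2-KO replicates 1 to 4. A link between these genes and the 2 branches was not tested.

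**Figure D3:**
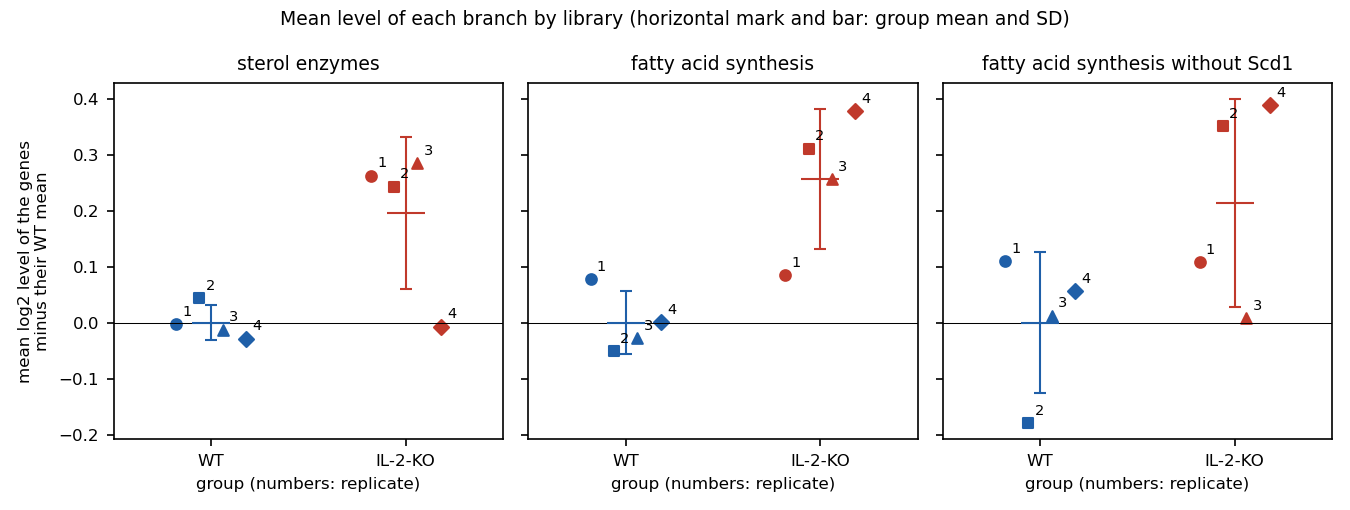
Mean log2 level of the 16 sterol enzyme genes, the 9 fatty acid genes and the 8 fatty acid genes without Scd1 in each library, relative to each gene's WT mean (points with replicate numbers, group mean and SD as bars). IL-2-KO replicate 4 has the lowest sterol mean of its group, at -0.0068, and the highest fatty acid mean, at 0.38.

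Further genes around the pathway were taken from 6 lists, with 102 genes tested. Of these 13 rose and 7 fell, or 19.6% called, against 19.2% of all genes. In the list of further sterol and isoprenoid enzymes 2 of 13 rose and 1 fell. Ebp, the sterol isomerase that shifts a ring double bond, stood at 35.9, 34.5, 31.7 and 35.5 CPM in WT and at 46.5, 46.9, 48.0 and 41.3 in IL-2-KO, without overlap. It rose 1.32-fold (limma adjusted p = 0.00765). Fntb, the farnesyltransferase subunit that uses the pathway's farnesyl groups, was at 83.3 ± 9.84 CPM in WT and 64.2 ± 4.02 in IL-2-KO and fell by 0.37 in log2 units (limma adjusted p = 0.0238). The Fntb call was lost without WT replicate 1, 3 or 4 or IL-2-KO replicate 3 (adjusted p from 0.0552 to 0.0826) and with the replicate block (0.0722).

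In the list of SREBP processing genes 1 of 12 rose and 1 fell. Mbtps1, the site-1 protease that cuts SREBPs, was at 225 ± 3.60 CPM in WT and 190.0 ± 12.3 in IL-2-KO and fell by 0.25 in log2 units (limma adjusted p = 0.0274). Its groups did not overlap. The Mbtps1 call was lost without WT replicate 1, 3 or 4 or IL-2-KO replicate 3 (adjusted p from 0.0562 to 0.0888), without both WT replicate 2 and IL-2-KO replicate 3 (0.0643) and with the replicate block (0.101).

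Among the 102 further genes tested, the called changes of greatest size were those of Soat2 and Abca1, in the list of sterol storage and export, where 1 of 15 tested genes rose and 2 fell. Soat2, an enzyme that esterifies cholesterol for storage, stood at 3.53, 3.54, 2.36 and 2.59 CPM in WT and at 31.02, 23.4, 31.8 and 15.8 in IL-2-KO. Every IL-2-KO library lay well above every WT library, and replicate 4 was the lowest of its group. Soat2 rose 7.24-fold (log2 change 2.86, SE 0.23; limma adjusted p = 7.09e-05) and kept its call in each of 22 alternative analyses, at changes from 2.42 to 3.06.

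Abca1, which exports cholesterol and is a known target of the sterol-sensing LXR receptors, stood at 23.5, 30.6, 30.8 and 20.5 CPM in WT and at 5.43, 8.62, 12.5 and 14.9 in IL-2-KO. The groups did not overlap, and Abca1 fell by 1.38 on the log2 scale (SE 0.27; limma adjusted p = 0.00659). Mylip, another known LXR target that marks lipoprotein receptors for degradation, stood at 109, 112, 101 and 110 CPM in WT and at 64.2, 71.9, 73.4 and 87.6 in IL-2-KO. It fell by 0.55 on the log2 scale without overlap (limma adjusted p = 0.00320). In the libraries of under 2 M cells alone, the changes of Abca1 and Mylip were -0.86 and -0.39 and did not pass (limma adjusted p = 0.128 and 0.189). The whole list had a median log2 change of -0.11, with 11 of 15 changes below 0, against 5938 of all 11530 genes tested.

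In the list of further fatty acid synthesis genes 2 of 16 rose and 2 fell. Mid1ip1, an activator of acetyl-CoA carboxylase, rose 1.57-fold (8.96 ± 1.71 to 14.3 ± 2.11 CPM; limma adjusted p = 0.0214), and the citrate carrier Slc25a1 rose 1.42-fold (14.3 ± 1.98 to 20.6 ± 4.26; limma adjusted p = 0.0466). Mecr, of mitochondrial fatty acid synthesis, fell by 0.30 on the log2 scale, and Hacd1, a dehydratase of elongation, fell by 0.65 (limma adjusted p = 0.0323 and 0.0388). All 4 calls were lost without WT replicate 1, 3 or 4 and with the replicate block. Slc25a1 was also lost without IL-2-KO replicate 1, 2 or 3, Mid1ip1 and Mecr without the same 3, and Hacd1 without IL-2-KO replicate 2, 3 or 4. The highest adjusted p of these single omissions was 0.142, for Slc25a1 without WT replicate 3.

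**Figure D4:**
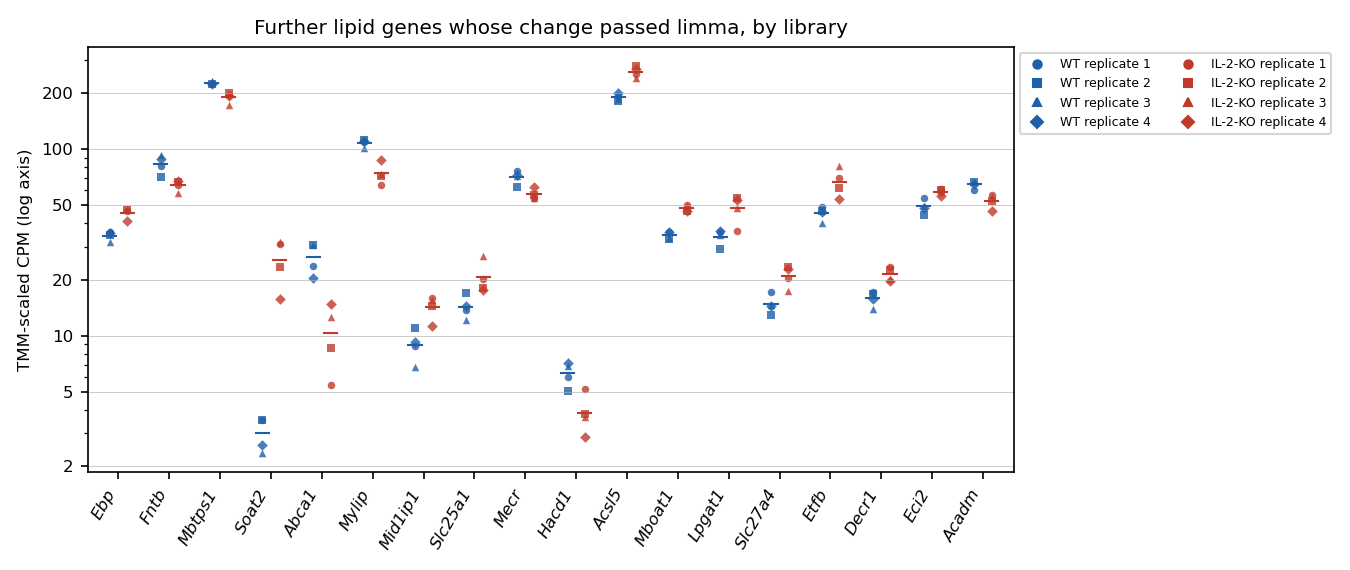
TMM-scaled CPM (log axis) of 18 further lipid genes that passed limma, in each of the 4 WT (blue) and 4 IL-2-KO (red) libraries, with lines at group means. Soat2 rises from 3.01 to 25.5 CPM on average and Abca1 falls from 26.4 to 10.4 CPM, each without overlap between the groups.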

How the data were processed

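Values deposited by the authors are a linear signal, 1 per gene and library, read here as counts per 1e6 of the TMM-scaled library size. The submitters' processing notes name GRCm38 and mm10 as builds and featureCounts, R 3.4.3 and limma 3.34.9 as tools, and the aligner, strand setting and count of multiply placed reads are not given in the sources used here. Low values stepped in whole reads for 54.6% to 65.0% of values per library and in hundredths of a read for the rest, so no count test was used. Genes at 1 or more in at least 4 of 8 libraries (11530 genes) were fitted with limma 3.58.1 in R 4.3.3 on log2(value + 0.5), with a mean-variance trend and 2-sided Benjamini-Hochberg adjustment over all genes tested. The fit was tested on simulated counts with the same spread setting for all genes. These counts held no library trends with GC content and no transcripts of other cells in single libraries. They therefore cannot show how such differences affect the calls. Genes were matched by Entrez ID to RefSeq (11651 of 11723). Members, lists and tests were chosen with earlier results of these data known. All members were named, and from each further list the 3 genes with the smallest adjusted p and any other that passed without overlap between groups. The labels state biological replicates, and pooling differed between libraries. Alternatives covered pseudocount, filter, scaling, single libraries, cell number, replicate block, array weights and, added after seeing the data, GC and length trends. Values of some genes counted in the further lists are not reported here.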

Additional observations from a re-analysis of the deposited data

Results flagged for a closer look

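In 8 of 102 groups of 4 libraries, checked over 51 genes, 1 library stood apart from the other 3 by Dixon's test at the 95% level, where chance gives about 1 group in 20. Idi1 in IL-2-KO replicate 4 was at 12.6 CPM, against 16.2 to 16.9 in replicates 1 to 3, and Msmo1 in the same library was at 16.9 CPM, against 21.7 to 22.4. Scd1 was at 2.69 CPM in WT replicate 2, against 0.693 to 0.938, and at 7.19 CPM in IL-2-KO replicate 3, against 1.02 to 1.49. These are the libraries with the most myeloid transcripts in each group. Hsd17b7 in WT replicate 2 was at 5.31 CPM, against 7.96 to 8.32. Mvd in WT replicate 3 was at 39.5 CPM, against 41.8 to 42.2. Srebf1 in IL-2-KO replicate 1 was at 117 CPM, against 107 to 108. Ube2g2, a ubiquitin-conjugating enzyme gene of the SREBP processing list, was at 51.1 CPM in IL-2-KO replicate 3, against 59.4 to 60.8.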

How the results depend on the processing

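Idi1 and Cyp51 kept their calls in all alternatives except the 2 fits of 2 libraries a group. Those fits called no sterol enzyme gene, and 322 genes higher and 62 lower in libraries of over 2 M cells, 355 and 86 in those of under 2 M cells. Leaving out single libraries gave 846 to 1295 genes higher and 439 to 938 lower, against 1285 and 926; WT replicates 1, 3 and 4 lowered the second count most (562, 439 and 466). Array weights gave 2240 and 2119, with 5 sterol enzyme genes higher and 1 lower, 1 regulator gene in each direction and 5 fatty acid genes higher. Mvd was the 1 sterol gene lower with the median shift, quantile normalization, GC and length trends removed (with or without the block) or without IL-2-KO replicate 1, so that single omissions gave 0 to 1. Stard4 was the 1 regulator higher without IL-2-KO replicate 1 (range 0 to 1), and Scap the 1 lower with the median shift. Elovl6 was the 1 fatty acid gene higher with pseudocount 0.1, a filter of at least 5 and GC trends removed, and with Fasn it made 2 without IL-2-KO replicate 3 (range 0 to 2) or without that library and WT replicate 2. Deviations of same-numbered libraries from their group means correlated at 0.0842, -0.53, -0.402 and 0.394. The highest value over all pairs across groups, 0.655, was that of the libraries with the most myeloid transcripts. Since such transcripts can shape these values, they cannot decide whether same-numbered libraries had a common batch or origin, which was not tested. The replicate block gave 911 genes higher and 486 lower, and 594 lower with GC and length trends removed. No member's call reversed. The cause of these shifts was not tested. Scd1, at as few as 11.5 reads, is limited by depth.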

Other observations

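Genes that attach fatty acids to coenzyme A and build glycerolipids were called in 3 of 23 tested cases, all higher in IL-2-KO. Over all genes tested 11.1% were called higher and 8.03% lower. The list median log2 change was 0.01. Acsl5, an acyl-CoA synthetase, rose 1.37-fold from 189 ± 7.97 to 259 ± 16.5 CPM (SD, n = 4 each; limma adjusted p = 0.00160), higher in 4 of 4 IL-2-KO libraries than in any WT library. Mboat1, a lysophospholipid acyltransferase, rose 1.39-fold from 34.6 ± 1.62 to 48.3 ± 1.96 CPM without overlap (limma adjusted p = 0.00184). The calls of Acsl5 and Mboat1 were lost only in the fits of 2 libraries a group (adjusted p from 0.113 to 0.218). Lpgat1, another acyltransferase gene, rose 1.40-fold (limma adjusted p = 0.0311), a call lost in each single omission except that of IL-2-KO replicate 1 (adjusted p from 0.0596 to 0.0791).

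Of 23 tested genes of fatty acid uptake and oxidation 4 rose and 1 fell, against 11.1% and 8.03% of all genes tested. The list median was 0.09. Etfb, a subunit of the flavoprotein that takes electrons from fatty acid oxidation, rose 1.44-fold from 45.6 ± 3.72 to 66.6 ± 11.4 CPM (limma adjusted p = 0.0138; 0.0509 without WT replicate 3). Slc27a4, a fatty acid transporter, and the oxidation enzymes Decr1 and Eci2 rose 1.40-, 1.34- and 1.20-fold (limma adjusted p = 0.0254, 0.0244 and 0.0475). Acadm, the medium-chain acyl-CoA dehydrogenase, fell by 0.29 on the log2 scale (limma adjusted p = 0.0327). Each of these 4 calls was lost without WT replicate 3 or 4 and in other single omissions, with adjusted p up to 0.123 for Eci2 without WT replicate 4.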
